A study of Mus musculus with 48 samples.

Results

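Microglia, the resident macrophages of the brain, were followed through 30 genes that they express, in the hippocampus of young adult mice whose dams drank water with lead, manganese or both. The genes were fixed by name and found by symbol in the count table: all 30 were present among its 57126 gene IDs, and all 30 passed the filter on low counts, which kept 16360 genes. They were read in 4 roles: 4 homeostatic genes (P2ry12, Tmem119, Cx3cr1 and Siglech), 11 phagocytic and complement genes, 12 other surface, secreted or enzyme genes, and 3 transcription factors.

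Microglia enter the brain early in development and renew themselves there. In the undisturbed brain they carry a set of surface proteins by which they sense purines, chemokines and neuronal ligands, and these homeostatic genes are known to be turned down when the cells become activated. Complement C1q, made in the brain largely by microglia, can tag synapses, and receptors such as Trem2 with its adaptor Tyrobp, complement receptor 3 and the Fc receptors serve uptake of debris.

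The series holds hippocampal RNA from 48 offspring of the outbred CD-1 stock, 6 in each of 8 groups made of sex and exposure of the dam. The dams drank plain water (control), Pb at 100 ppm, Mn at 2 g/L, or both metals at those levels (Pb+Mn). Drinking began 2 weeks ahead of mating and ended when pups were weaned at postnatal day 21, 8 weeks in all, and offspring were sampled at 2 months. Offspring were exposed through the dam only. The labels do not say which animals were littermates, so every p-value measures the spread between these animals. The 6 animals of a group may come from fewer litters, in which case SEs and p-values would be too small. In bulk tissue, fewer microglia and less RNA per microglial cell cannot be told apart.

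The libraries held between 6.27 and 27.6 M counts on genes, with a median of 15.1 M. The 30 genes together took between 661 and 1206 CPM (counts scaled to a library size of 1 M, with TMM factors) of a library, with a median of 788 CPM. Genes of border macrophages, which share many of these markers, summed to between 9.73 and 41.1 CPM over 10 genes, 5 of which had a median under 1 CPM. Of 12 monocyte and neutrophil genes, 11 had a median under 1 CPM, and of 10 lymphocyte genes 6 had a median of 0. Libraries also differed in the slope of expression on transcript length (log2 CPM per log2 unit of length, over 16091 genes): it was lowest in male Pb 6 (-0.341), female Pb 2 (-0.313) and female control 1 (-0.212), so that short transcripts were relatively high there.

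Female control 1 stood apart from the other 5 female controls in the microglia genes themselves. It was the highest of its group for 27 of the 30 genes, and their sum reached 1206 CPM against a lowest value of 684 CPM in that group. Its C1qa level was 131 CPM and the nearest other female control had 74.7 CPM. The counts over the 30 genes in comparisons that use female control are therefore also given without it.

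Levels were first compared between the genes, as median CPM over the 48 libraries divided by the length of the longest annotated transcript in kilobases (CPM per kb). Ctss, the lysosomal protease cathepsin S, led with 65.6 CPM per kb. C1qa, C1qb and C1qc, which encode the 3 chains of C1q, followed at 63.0, 32.2 and 30.3 CPM per kb. Tyrobp, the signalling adaptor of Trem2, had 26.4 CPM per kb, and Csf1r, the receptor whose signal microglia need to survive, had 25.8 CPM per kb. Laptm5, a lysosomal membrane protein of blood-lineage cells, had 17.5 CPM per kb. Ctss and C1qa lay close together, as did C1qb and C1qc. The order below the C1q chains is close too, with neighbours that overlap between animals.

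The homeostatic genes lay in the middle of that order. P2ry12, the ADP receptor that steers microglial processes, had 17.4 CPM per kb, Tmem119, a microglial membrane protein, 15.9, Cx3cr1, the receptor of the neuronal chemokine fractalkine, 14.0, and Siglech, a sialic acid-binding lectin, 5.52 CPM per kb. The lowest levels were those of Irf8, a transcription factor of the myeloid lineage, at 1.40 CPM per kb, Itgam, the alpha chain of complement receptor 3, at 1.53 CPM per kb, and Cd14, the co-receptor for lipopolysaccharide, at 1.59 CPM per kb. Trem2, a lipid-sensing phagocytic receptor, had 2.14 CPM per kb on the length of its longest transcript, 4.78 kb. Of the genes between, Cd68 had 4.77 CPM per kb, Ly86, a partner of a Toll-like receptor homologue, 4.18, Slco2b1, an organic anion transporter, 3.93, and Olfml3, a secreted glycoprotein, 3.44 CPM per kb.

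Between animals of a group the 30 genes varied about as much as other genes: the median SD of their log2 CPM within groups was 0.295, against 0.282 over all genes tested. Ltc4s, the leukotriene C4 synthase, varied most, with an SD of 0.747 and levels from 0.66 to 9.6 CPM. Sall1, a transcription factor that holds microglia in their identity, varied least, with an SD of 0.178 and levels from 17.6 to 33.3 CPM. Cd14 (SD 0.492), Trem2 (0.464) and Tyrobp (0.412) came after Ltc4s, and Slco2b1 came just above Sall1 (0.201).

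**Figure D1:**
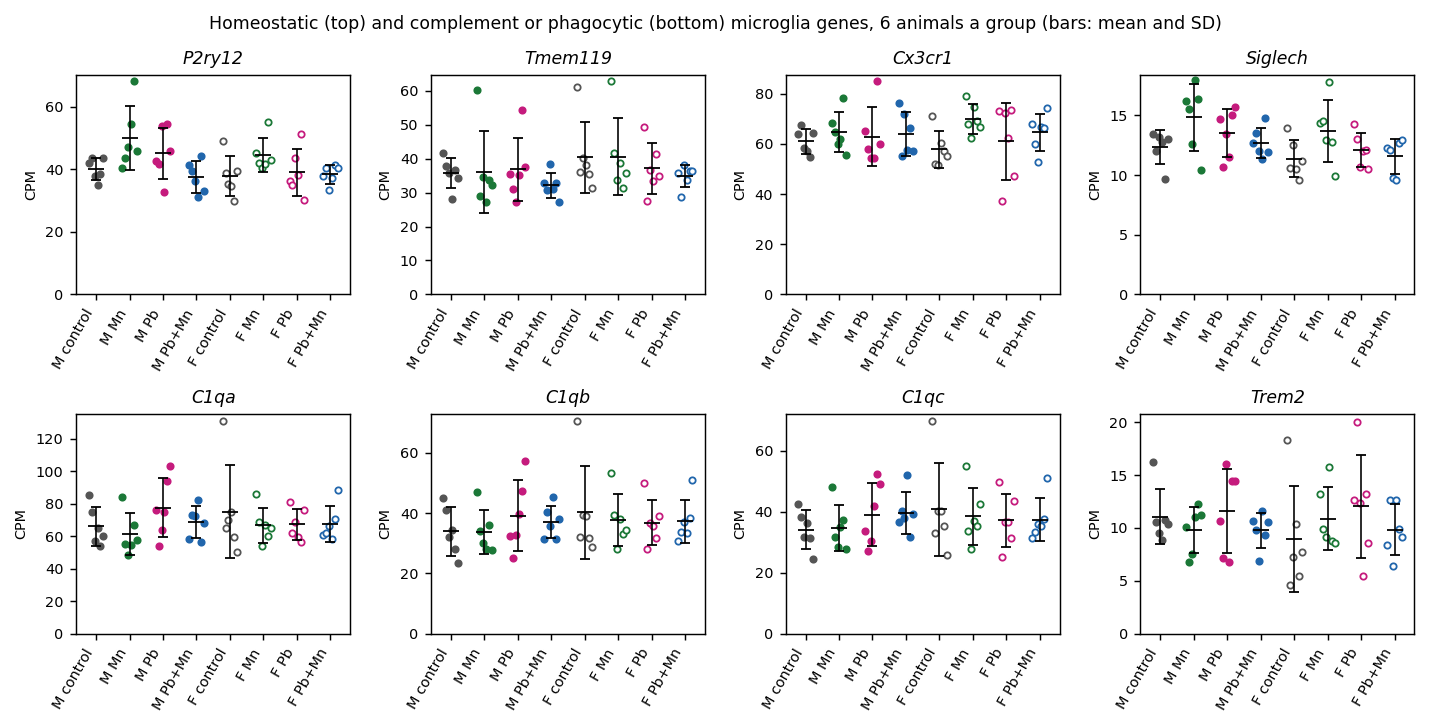
Level in CPM of the 4 homeostatic genes (top row) and of C1qa, C1qb, C1qc and Trem2 (bottom row) in each of 48 animals, by sex (M, filled; F, open) and exposure, with the mean and SD of 6 animals. The groups overlap in every panel, and 1 female control animal, at 131 CPM of C1qa, lies above all other animals for the 3 C1q genes.

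No microglia gene passed the adjusted threshold of 0.05 (edgeR quasi-likelihood test, Benjamini-Hochberg over 16360 genes) in any of the 17 comparisons made; the smallest adjusted p of a member was 0.092. In the 16 comparisons other than that of the sexes no gene of any kind passed, which is a background of 0.0% called, and the count at an unadjusted p under 0.05 is given below for each as the background. The background counts of calls by DESeq2 and limma voom stand with the limits of the results. Fold changes are log2 values ± SE with 6 animals a group.

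In male Mn, P2ry12 and Siglech had higher means than in male control, and neither passed the adjusted threshold. P2ry12 ranged from 40.2 to 68.3 CPM (median 46.4) in male Mn and from 35.0 to 43.7 CPM (median 40.2) in male control. All 6 exposed males lay above the control mean, and the groups overlapped. The log2 fold change of P2ry12 was 0.32 ± 0.12 (edgeR unadjusted p = 0.014, adjusted p = 1.0). Siglech ranged from 10.4 to 18.0 CPM (median 15.9) against 9.64 to 13.4 CPM (median 12.9), with 5 of 6 exposed males above the control mean and a log2 fold change of 0.27 ± 0.13 (edgeR unadjusted p = 0.036). P2ry13, a further purine receptor encoded next to P2ry12, ranged from 14.1 to 17.9 CPM (median 15.1) against 9.08 to 14.2 CPM (median 12.8), and its log2 fold change was 0.28 ± 0.16 (edgeR unadjusted p = 0.079).

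Of the 30 genes, 21 had a positive log2 fold change in male Mn, with a median of 0.05 against -0.01 over all genes, and 2 were at an unadjusted p under 0.05, both higher (6.67%, where 2.25% of all genes were). The 11 phagocytic and complement genes had a median of 0.02, with 6 positive and none at that p. Without male Mn 5 neither of the 2 remained under that p, and P2ry12 then stood at 0.21. Siglech missed it, with P2ry12 alone left, without male control 2, male control 5, male Mn 1, male Mn 2 or male Mn 4, and also with no filter on low counts. It missed it too with the replicate block, where P2ry12 and P2ry13 were under that p, and with only the groups compared in the fit, where P2ry12, P2ry13 and Aif1 were.

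In female Mn, Cx3cr1, Siglech and Irf8 had higher means than in female control, and none passed the adjusted threshold. Cx3cr1 ranged from 62.4 to 79.1 CPM (median 68.5) in female Mn and from 51.5 to 71.3 CPM (median 56.0) in female control, all 6 exposed females lay above the control mean, and the log2 fold change was 0.27 ± 0.12 (edgeR unadjusted p = 0.031, adjusted p = 1.0). Siglech ranged from 9.92 to 17.8 CPM (median 13.6) against 9.56 to 13.9 CPM (median 10.9), with a log2 fold change of 0.28 ± 0.13 (edgeR unadjusted p = 0.033). Irf8 ranged from 4.44 to 6.84 CPM (median 5.23) against 3.11 to 5.51 CPM (median 4.22), with a log2 fold change of 0.34 ± 0.15 (edgeR unadjusted p = 0.031). The groups overlapped for all 3 genes.

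In female Mn, 21 of the 30 genes were positive, with a median of 0.15 against -0.00 over all genes. An unadjusted p under 0.05 was reached by 3 genes, all higher (10%, against 2.62% of all genes). The 4 homeostatic genes had a median of 0.25 and the 11 phagocytic and complement genes one of -0.03. Without female control 1, 29 of 30 were positive, the median was 0.25 and 9 were at that p, against 542 of all genes. The count was 0 without female control 2, female Mn 1 or female Mn 4, and 1 without female control 5 or with only the groups compared in the fit.

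Averaged over the sexes, P2ry12 was 47.2 ± 8.28 CPM (SD) in 12 Mn animals and 38.9 ± 5.08 CPM in 12 controls. All 12 exposed animals lay above the control mean. Its log2 fold change was 0.27 ± 0.09 (edgeR unadjusted p = 0.003, adjusted p = 0.89), and it stayed at an unadjusted p under 0.05 in all 32 alternative settings, with log2 fold changes from 0.22 to 0.32. Siglech was 14.3 ± 2.66 CPM against 11.9 ± 1.51 CPM, 10 of 12 exposed animals lay above the control mean, and its log2 fold change was 0.28 ± 0.09 (edgeR unadjusted p = 0.0035, adjusted p = 0.93), also under that p in 32 of 32 settings. P2ry13 and Cx3cr1, named here after their values were seen, made up the 4 genes at an unadjusted p under 0.05 (13.3%, against 4.55% of all genes). The means of Tmem119 were close in either sex, at 36.2 ± 12.2 against 35.7 ± 4.52 CPM in males and 40.6 ± 11.5 against 40.4 ± 10.6 CPM in females. Its median was lower in male Mn than in male control, at 33.0 against 36.2 CPM, and 37.2 against 37.0 CPM in females. Male Mn 1 had 60.3 CPM and the next male Mn animal 34.5 CPM. The count of 4 was 2 without male Mn 5, female control 3, female control 5 or female Mn 1, and 7 without female control 1. Over all genes, 535 to 996 were at an unadjusted p under 0.05 when 1 animal was left out.

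The sex-by-Mn term, which asks whether the difference was unequal between the sexes, had 0 of 30 genes at an unadjusted p under 0.05 (0.954% of all genes), with 15 positive and a median of 0.00. Without female control 1 it had 1, Trem2, with 26 positive and a median of 0.15. The 2 members of smallest p were Cd68, a lysosomal glycoprotein of macrophages, at 0.36 ± 0.23 (edgeR unadjusted p = 0.12), and Irf8 at 0.29 ± 0.22 (unadjusted p = 0.18), females minus males. Other markers moved beside the Mn groups: 10 of 10 meningeal genes were negative in male Mn and 9 of 10 in female Mn, with sums of 38.8 to 143 CPM in male Mn and 49.5 to 109 CPM in female Mn against 56.7 to 209 and 48.2 to 195 CPM in the controls. Averaged over the sexes, 6 of the 10 meningeal genes were lower at an unadjusted p under 0.05. In female Mn 10 of 10 oligodendrocyte genes were negative (median -0.34), 4 of them at that p, with sums of 4550 to 10806 CPM against 7796 to 11592 CPM, and in male Mn 7 of 10 were positive (median 0.03). In male Mn 10 of 10 choroid plexus genes were negative (median -0.52) and none was at that p, with sums of 89.5 to 1982 CPM against 58.2 to 4600 CPM. Border macrophage genes were negative in 7 of 9 cases in each sex, with sums of 12.1 to 32.1 CPM in male Mn and 9.73 to 29.8 CPM in female Mn against 16.2 to 32.5 and 16.0 to 41.1 CPM. The part of these markers in the result was not tested.

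**Figure D2:**
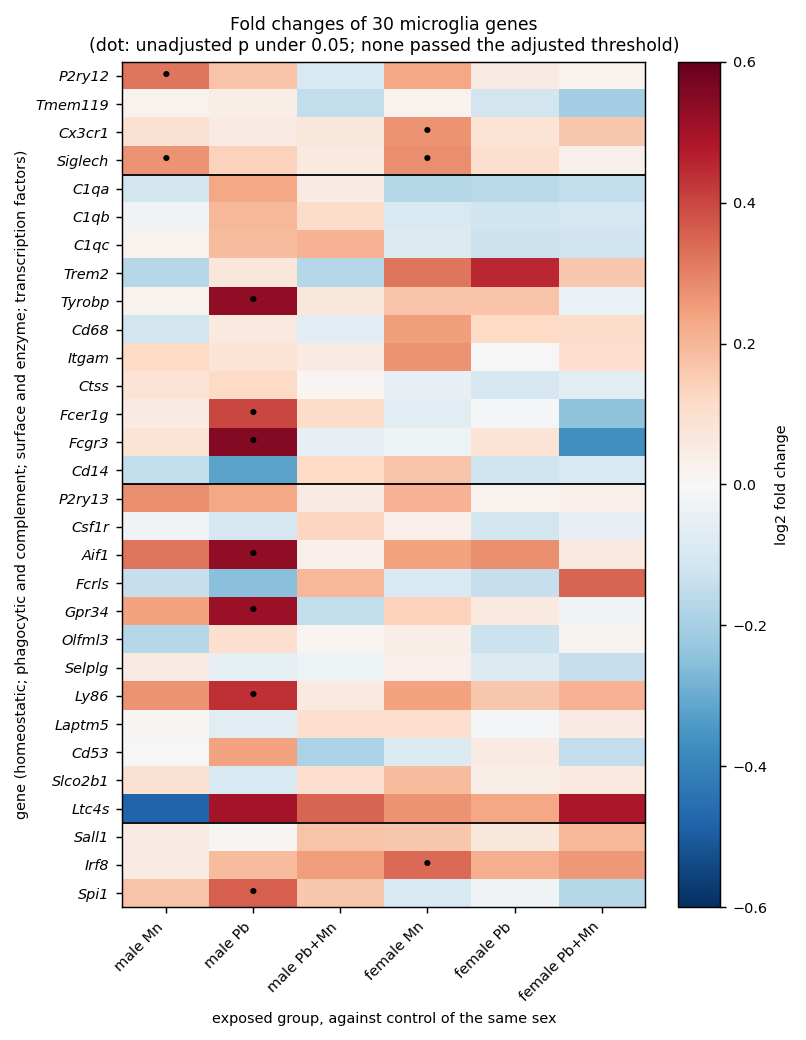
Log2 fold change of the 30 microglia genes (rows, in 4 role blocks) in each exposed group against control of the same sex (columns), red higher and blue lower, with a dot at an unadjusted p under 0.05. The Mn columns have dots mainly in the homeostatic block and the male Pb column has its 7 dots outside it.

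With both metals together no microglia gene came under the unadjusted threshold in either sex in the fit of all 48 libraries. In male Pb+Mn, P2ry12 ranged from 31.0 to 44.3 CPM (median 37.8), the homeostatic genes had a median log2 fold change of -0.02 against control, and 0 of 30 genes were at an unadjusted p under 0.05 (2.93% of all genes). The 3 genes of smallest p were Irf8 at 0.25 ± 0.15 (edgeR unadjusted p = 0.099), Sall1 at 0.17 ± 0.10 (unadjusted p = 0.10) and Cd53 at -0.19 ± 0.14 (unadjusted p = 0.19). Cd53 encodes a tetraspanin of white blood cells and microglia. Leaving out male control 1 brought Irf8 under that p, and leaving out male control 3 brought Ltc4s there. Red cell genes were at that p and higher in 4 of 5 cases in male Pb+Mn, with sums of 495 to 1108 CPM against 418 to 532 CPM, and their part was not tested.

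In female Pb+Mn, 0 of 30 genes were at an unadjusted p under 0.05 (1.64% of all genes), and the median was 0.02. Sall1 was 28.4 ± 2.39 CPM against 24.9 ± 1.97 CPM in control, all 6 exposed females lay above the control mean, and its log2 fold change was 0.20 ± 0.10 (edgeR unadjusted p = 0.065). Fcgr3, a low-affinity receptor for IgG, was 9.66 ± 1.22 against 12.5 ± 2.86 CPM, at -0.37 ± 0.21 (unadjusted p = 0.081), and Irf8 was at 0.26 ± 0.15 (unadjusted p = 0.094). Without female control 1, 25 of 30 genes were positive instead of 16, the median was 0.11, and Ly86 came under that p. Without female control 4, Irf8 came under it. With only the groups compared in the fit 2 genes did, Sall1 and Fcgr3, the latter lower, and the same 2 did without male Pb 6 and female Pb 2.

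P2ry12 was also compared directly between both metals and Mn alone. Male Pb+Mn against male Mn gave a log2 fold change of -0.41 ± 0.12 (edgeR unadjusted p = 0.0019, adjusted p = 0.94), with all 6 Pb+Mn males below the Mn mean of 49.9 CPM, and it kept an unadjusted p under 0.05 in all 20 alternatives. Gpr34, a receptor for lysophosphatidylserine, was at -0.39 ± 0.19 (unadjusted p = 0.046). These 2 were the members at an unadjusted p under 0.05 (6.67%, against 4.03% of all genes), and 4 of 4 homeostatic genes were negative. P2ry12 alone remained without male Mn 2, male Mn 5, male Pb+Mn 2, male Pb+Mn 4 or male Pb+Mn 6, and with the replicate block, the length slope as a covariate or limma voom, and the count was 4 without male Pb+Mn 5. Leaving out 1 animal gave 417 to 961 genes of all kinds at that p. Red cell genes were higher at that p in 4 of 5 cases, and 10 of 10 choroid plexus genes were positive (median 1.02) with none at that p. Their part was not tested.

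In females, Pb+Mn against Mn had 26 of 30 genes negative, with a median of -0.12 against -0.00 over all genes. Siglech, at -0.25 ± 0.13 (edgeR unadjusted p = 0.05), and Fcrls, an Fc receptor-like protein typical of mouse microglia, at 0.44 ± 0.22 (unadjusted p = 0.05), were the 2 members under the unadjusted threshold before rounding (6.67%, against 2.55% of all genes). Leaving out single libraries gave between 0 and 2 such members, and 0 without female Mn 2, female Mn 4, female Pb+Mn 1 or female Pb+Mn 4. The count was also 0 with the length slope as a covariate, and it was 3 (Fcgr3, P2ry12 and Fcrls) with only the groups compared in the fit. Other markers moved here as well: 10 of 10 oligodendrocyte genes were positive (median 0.33), 4 at that p, 10 of 10 choroid plexus genes were positive (median 1.03), 1 at that p, and 4 of 5 red cell genes were higher at that p. Their sums in female Pb+Mn were 7309 to 12874, 87.4 to 4546 and 335 to 747 CPM, against 4550 to 10806, 64.5 to 1935 and 300 to 568 CPM in female Mn, and their part was not tested. The comparisons with Mn and with control share the Pb+Mn animals, and those of Mn and of Pb+Mn with control share the controls.

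Averaged over the sexes, Pb+Mn against control had Sall1 at 0.19 ± 0.07 (edgeR unadjusted p = 0.015, adjusted p = 0.91), at 29.5 ± 2.13 CPM against 26.1 ± 2.71 CPM and with all 12 exposed animals above the control mean. Irf8 was at 0.26 ± 0.11 (unadjusted p = 0.021, adjusted p = 0.91), with 11 of 12 above. These 2 transcription factors were the members at an unadjusted p under 0.05 (6.67%, against 4.58% of all genes). Spi1, which encodes PU.1, the factor on which the whole lineage depends, was not among them. Irf8 left the count without male Pb+Mn 6 or female control 2, and Sall1 left it without female Pb+Mn 4. The count was 5 with only the groups compared in the fit (Sall1, Irf8, Fcgr3, Fcrls and Tmem119), and 3 without male control 1, male control 3, female control 6 or female Pb+Mn 5, and without male Pb 6 and female Pb 2 together. Without female control 1 it stayed at Sall1 and Irf8, with 25 of 30 genes positive and a median of 0.10, against 19 and 0.02 with it. When 1 animal was left out, 513 to 1038 of all genes were at an unadjusted p under 0.05.

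In male Pb, phagocytic, surface and lineage genes other than the homeostatic 4 had the smallest p-values, and none passed the adjusted threshold. There, 24 of the 30 genes were positive, with a median of 0.16 against 0.00 over all genes, and 7 were at an unadjusted p under 0.05, all higher (23.3%, against 12.5% of all genes). They were Gpr34, Fcgr3, Aif1, Fcer1g, Tyrobp, Ly86 and Spi1, with log2 fold changes from 0.36 to 0.55. None of the 4 homeostatic genes was among them, and P2ry12 was 45.1 ± 8.17 CPM against 40.1 ± 3.54 CPM.

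Gpr34 ranged from 11.3 to 29.8 CPM (median 15.7) in male Pb and from 8.75 to 17.6 CPM (median 12.3) in male control. Its log2 fold change was 0.52 ± 0.19 (edgeR unadjusted p = 0.0074, adjusted p = 0.34), with 5 of 6 exposed males above the control mean. Fcgr3 ranged from 7.8 to 31.1 CPM (median 14.2) against 9.74 to 12.8 CPM (median 11), at 0.55 ± 0.20 (edgeR unadjusted p = 0.0085, adjusted p = 0.34). The male Pb values thus spread to both sides of the control range. Aif1, the calcium-binding protein also called Iba1, ranged from 5.63 to 17.7 CPM (median 8.52) against 5.24 to 8.13 CPM (median 7.1), at 0.53 ± 0.22 (edgeR unadjusted p = 0.021, adjusted p = 0.35). Tyrobp ranged from 10.6 to 42.6 CPM (median 19.4) against 10.6 to 20.8 CPM (median 15.5). For all 4 genes the highest value was that of male Pb 6, and the next male Pb animal had 21.2 CPM of Gpr34, 17.2 of Fcgr3, 9.03 of Aif1 and 22.3 of Tyrobp. Without male Pb 6 the log2 fold changes were 0.31 ± 0.18 for Gpr34, 0.25 ± 0.18 for Fcgr3, 0.23 ± 0.21 for Aif1 and 0.22 ± 0.22 for Tyrobp, where Tyrobp had 0.53 ± 0.23 with it.

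Tyrobp, Fcer1g and Aif1 have annotated transcripts of 0.597, 0.683 and 0.875 kb, and the libraries with a low length slope were high for them. Over the 30 genes the log2 fold change in male Pb fell with log2 transcript length, with r = -0.54 and rho = -0.56 across genes, and the 15 shorter genes had a median of 0.24 against 0.07 for the 15 longer ones, split at 2.27 kb. All 15 of 15 cytosolic ribosomal protein genes, which have short transcripts, were at an unadjusted p under 0.05 in male Pb with a median of 0.69, their sum ranging from 3410 to 10328 CPM against 3189 to 4420 CPM in male control. Mitochondrially encoded genes were at that p in 12 of 13 cases, and red cell genes, with 5 of 5 positive, summed to 469 to 1307 CPM against 418 to 532 CPM. Choroid plexus genes were positive in 10 of 10 cases with none at that p, meningeal genes negative in 8 of 10 with 3 at that p, and border macrophage genes negative in 8 of 9 with none at that p. Of 3 monocyte and neutrophil genes tested, 1 was higher at that p (33.3%, against 12.5% of all genes). The sums over that list were 7.09 to 27.3 CPM against 7.61 to 11.4 CPM. The 1 lymphocyte gene tested was also higher at that p, with list sums of 0.804 to 2.45 CPM against 0.288 to 1.01 CPM. The part of these markers was not tested. With the length slope of each library as a covariate, 0 of 30 microglia genes were at an unadjusted p under 0.05, against 961 of all genes. Without male Pb 6 the count was 1, Spi1, against 845 of all genes. It was 2 without male control 5 and 4 with only the groups compared in the fit.

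**Figure D3:**
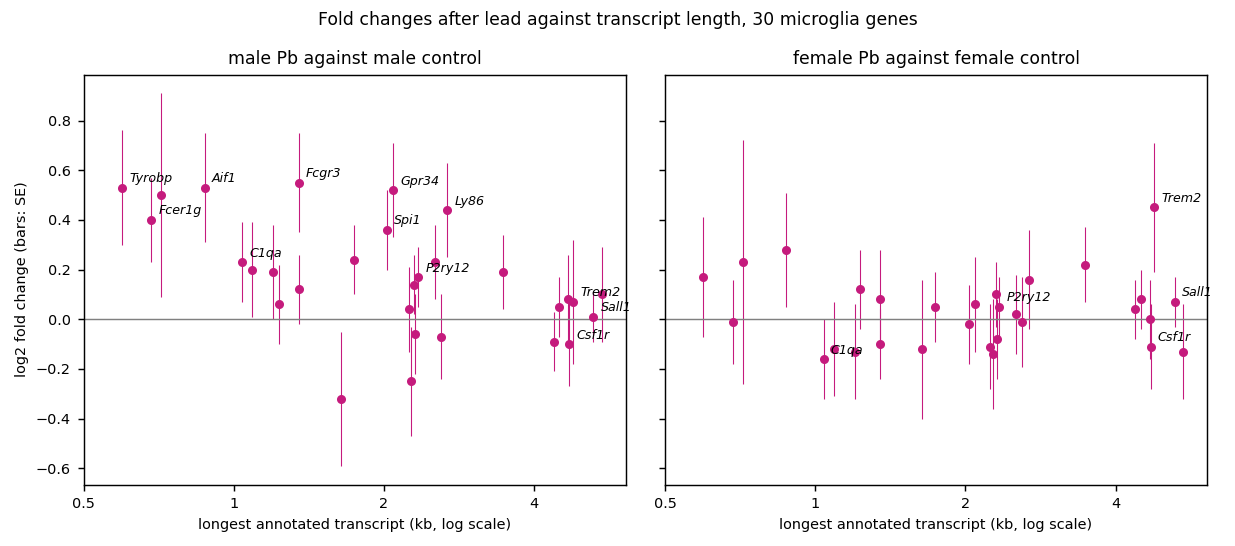
Log2 fold change (with SE) of each of the 30 microglia genes in male Pb (left) and female Pb (right) against the length of its longest transcript in kilobases, on a log scale. In males the short-transcript genes such as Tyrobp and Aif1 lie highest (r = -0.54 across genes), and in females no such trend appears (r = 0.0).

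In female Pb, 0 of 30 genes were at an unadjusted p under 0.05 (2.18% of all genes), 17 were positive, and the median was 0.03. Trem2 had the smallest p: it ranged from 5.47 to 20 CPM (median 12.5) against 4.6 to 18.3 CPM (median 7.48), at 0.45 ± 0.26 (edgeR unadjusted p = 0.09). The groups overlapped over nearly their whole range. Irf8 was at 0.22 ± 0.15 (unadjusted p = 0.17) and Aif1 at 0.28 ± 0.23 (unadjusted p = 0.23). Without female control 1, 27 genes were positive, the median was 0.14 and Trem2 came under the unadjusted threshold; it also did so without female Pb 4, and Irf8 did without female control 4.

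The sex-by-Pb term had 0 of 30 genes at an unadjusted p under 0.05 (2.07% of all genes) and a median of -0.17, females minus males; without female control 1 the count was 0 and the median -0.05. Gpr34 had the smallest p, at -0.47 ± 0.27 (edgeR unadjusted p = 0.088). Without male Pb 2 there were 4 genes at that p, C1qa, Fcgr3, Fcer1g and Gpr34, and without female Pb 2 there were 2, against 2162 of all genes. That count over all genes ranged from 208 to 2162 when 1 animal was left out. Averaged over the sexes, Pb against control had 5 genes at that p, all higher (16.7%, against 11.5% of all genes), with Aif1 at 0.40 ± 0.16 (unadjusted p = 0.015, adjusted p = 0.34) and Fcgr3 at 0.32 ± 0.14 (unadjusted p = 0.032, adjusted p = 0.39). Without male Pb 6 these were 0.26 ± 0.14 and 0.16 ± 0.12, and without female Pb 2 they were 0.29 ± 0.15 and 0.21 ± 0.13. Without both libraries together Aif1 was at 0.14 ± 0.13 and Fcgr3 at 0.05 ± 0.11. The count was 0 without male Pb 6, 0 without female Pb 2, 0 with the length slope as a covariate, 1 with the replicate block or with only the groups compared, 2 with limma voom, 3 without male control 6, female control 2 or female control 6, and 10 without female control 1. Over all genes, 937 to 2690 were at that p when 1 animal was left out.

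Set against male Pb, male Pb+Mn had lower means of Gpr34, Cd53 and 5 others, and none passed the adjusted threshold. Gpr34 ranged from 9.81 to 13.3 CPM (median 10.8) in male Pb+Mn, all 6 animals lay below the male Pb mean of 17.9 CPM, and the log2 fold change was -0.67 ± 0.19 (edgeR unadjusted p = 0.0007, adjusted p = 0.092). Cd53 was 7.59 ± 0.607 CPM against 10.1 ± 2.06 CPM, at -0.43 ± 0.14 (edgeR unadjusted p = 0.0034, adjusted p = 0.093). Of 30 genes, 8 were at an unadjusted p under 0.05, 7 lower and Fcrls higher (26.7%, against 23.8% of all genes), a share near the background. All 15 ribosomal protein genes were lower at that p, with a median of -0.68, and the r of the 30 log2 fold changes with log2 length was 0.40. The count was 3 without male Pb 6, 5 without male Pb 3, male Pb+Mn 5 or male Pb+Mn 6, 4 without male Pb+Mn 4, 4 with only the groups compared and 2, P2ry12 and Gpr34, with the length slope as a covariate. Of all genes, 1403 to 4996 were at that p when 1 animal was left out.

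Gpr34 passed the adjusted threshold in DESeq2, at -0.68 with an adjusted p of 0.045 (0.026 to 0.83 over 20 alternatives). In edgeR it passed without male Pb 2, at -0.80, and without male Pb 5, at -0.75. Cd53 passed without male Pb 2, at -0.52 with an adjusted p of 0.029 (up to 0.83). Fcgr3, named here after its values were seen, at -0.61 ± 0.20 with all libraries (edgeR adjusted p = 0.093), passed without male Pb 2, at -0.77 (adjusted p = 0.027), and without male Pb 5, at -0.68 (adjusted p = 0.037; 0.027 to 0.92 over its alternatives). Without male Pb 6 the log2 fold changes were -0.46 for Gpr34, -0.33 for Cd53 and -0.30 for Fcgr3. Without male Pb 2 or male Pb 5, 1479 and 1545 genes of all kinds passed as well, where 0 passed with all libraries. Female Pb+Mn against female Pb had 2 members at an unadjusted p under 0.05 (6.67%, against 3.83% of all genes): Fcrls at 0.49 ± 0.22 (edgeR unadjusted p = 0.029), with all 6 above the female Pb mean of 19.2 CPM, and Fcgr3 at -0.45 ± 0.21 (unadjusted p = 0.034). Fcgr3 left the count without female Pb+Mn 2, Fcrls without female Pb 3, female Pb 5 or female Pb+Mn 6, and both without female Pb 2.

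The C1q chains overlapped between all groups. C1qa was 66.0 ± 12 CPM in male control, 61.1 ± 12.8 in male Mn, 77.6 ± 18.2 in male Pb and, with both metals, 68.5 ± 9.8 in males. In females it was 75.0 ± 28.7, 66.7 ± 10.8, 67.2 ± 9.66 and 67.5 ± 11.1 CPM in the same order. Without female control 1, at 131 CPM, the other 5 female controls had 63.8 ± 9.49 CPM, so that the 3 exposed female groups had means above control instead of below it. C1qb ranged from 23.3 to 70.6 CPM and C1qc from 24.4 to 69.9 CPM over the 48 animals, and neither was at an unadjusted p under 0.05 in any comparison with control.

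A per-animal summary set the mean log2 CPM of the 4 homeostatic genes against that of the 3 C1q genes. The homeostatic mean was 5.01 ± 0.11 (SD) in male control, 5.16 ± 0.17 in male Mn, 5.09 ± 0.22 in male Pb and, with both metals, 4.98 ± 0.13 in males, and 4.97 ± 0.21, 5.17 ± 0.16, 4.99 ± 0.22 and 4.98 ± 0.11 in the female groups in that order. The difference, homeostatic minus C1q, was -0.20 ± 0.17 in male Mn against -0.38 ± 0.26 in male control, and -0.33 ± 0.18 in female Mn against -0.60 ± 0.29 in female control, or -0.50 ± 0.20 in the 5 female controls without female control 1. Among the other exposed groups it lay between -0.55 and -0.49. The ranges of all groups overlapped, and no test was made of this summary.

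**Figure D4:**
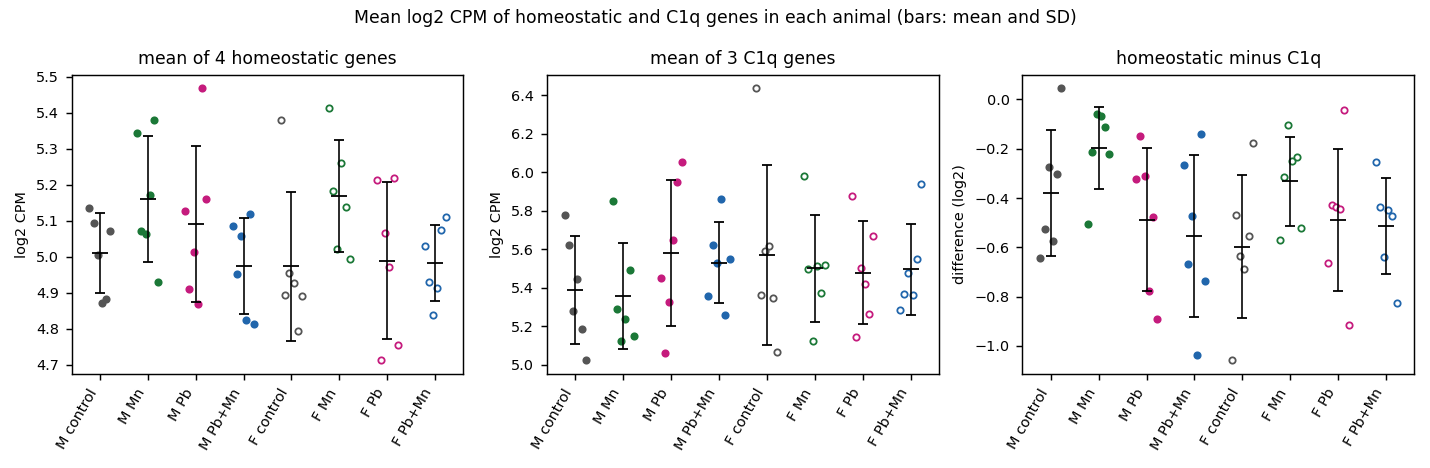
Mean log2 CPM of the 4 homeostatic genes (left) and of the 3 C1q genes (middle), and their difference (right), in each animal, with the mean and SD of 6 animals a group. The Mn groups of both sexes have the highest homeostatic means, 5.16 and 5.17, and animals of all groups overlap.

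Between animals of the same group, the microglia genes did not move as a single block. Values were log2 CPM minus the mean of the own group over 48 libraries, and 4 pairs were tested with permutations within groups. C1qa and C1qb had r = 0.93 and rho = 0.87 (permutation p = 1e-05 for both, the smallest 100000 resamples can give, adjusted p = 4e-05), and r = 0.90 without the 2 libraries farthest in C1qa. P2ry12 and Tmem119, both homeostatic, had r = 0.12 and rho = 0.16 (permutation p = 0.5 and 0.31, adjusted p = 0.62 and 0.42). This was the lowest r among the homeostatic pairs, and the others were not tested. Cx3cr1 had r = 0.59 with Tmem119 and 0.55 with P2ry12. Siglech had 0.37 with P2ry12, 0.36 with Cx3cr1 and 0.28 with Tmem119. P2ry12 and C1qa had r = 0.08 and rho = -0.01 (permutation p = 0.62 and 0.96, adjusted p = 0.62 and 0.96). Cd14 and C1qa had r = 0.34 and rho = 0.28 (permutation p = 0.018 and 0.063, adjusted p = 0.036 and 0.13), and r = 0.33 with an adjusted p of 0.074 over the 46 libraries without the 2 farthest in Cd14.

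Of all 435 pairs, 86 had an r above 0.5 and 63 one below 0, with a median of 0.32. These are descriptions, with pairs picked after their values were seen. All genes of a library share the depth and RNA quality of that library, which may differ between libraries. Csf1r went with Laptm5 (r = 0.88), with Selplg, the ligand of P-selectin (0.87), and with Cx3cr1 (0.84). Tmem119 went with Selplg (0.82) and, at 0.69, with C1qa and C1qb. Tyrobp, Fcgr3 and Aif1 formed a further block, with r = 0.80 for Fcgr3 and Aif1, 0.75 for Tyrobp and Aif1 and 0.74 for Tyrobp and Fcgr3. Aif1 and Csf1r, both in common use as microglial markers, lay in different blocks. The blocks differed in their relation to the length slope of the libraries: r with it was -0.86 for Tyrobp, -0.74 for Fcgr3 and -0.72 for Aif1. It was 0.36 for Csf1r and 0.35 for Cx3cr1, but 0.14 for Selplg and 0.12 for Laptm5. In the C1q block it was -0.52 for C1qa, -0.45 for C1qb and -0.29 for C1qc. Sall1 had an r of 0.53 with the slope. For P2ry12 it was 0.18 and for Tmem119 -0.15.

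**Figure D5:**
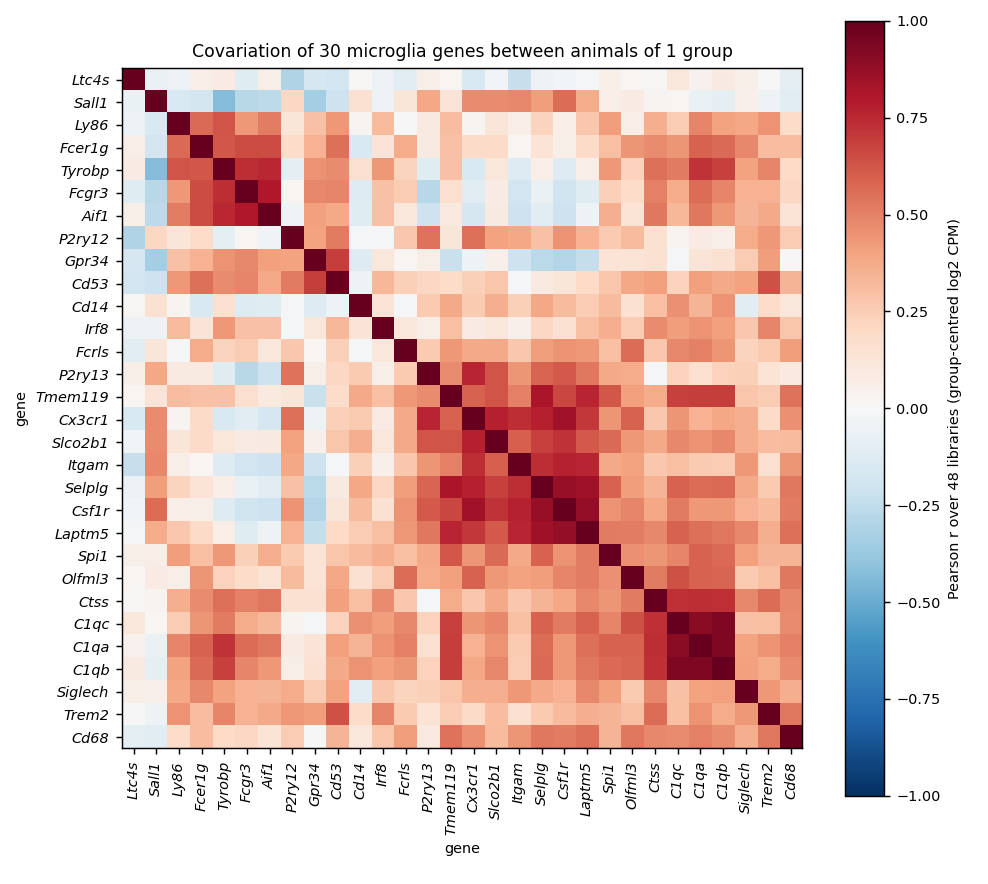
Pearson r between each pair of the 30 microglia genes over 48 libraries, from log2 CPM minus the mean of the own group, with genes ordered by average-linkage clustering on 1 minus r. The C1q genes form a tight block (r = 0.90 to 0.93), Csf1r, Selplg and Laptm5 another (0.85 to 0.88), and Tyrobp, Fcgr3 and Aif1 a further one (0.74 to 0.80).

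Genes outside the 30 were ranked by the same r. Among those most like the homeostatic mean were Vsir, an immune checkpoint receptor, at r = 0.79, and Camkv, H1fx, Npdc1, Sgta, Calm3, Eri3, Ptms and Ubald1 at 0.77 to 0.79. The other members most like it were Laptm5 at 0.81 and Selplg and Csf1r at 0.80, and Aif1 had 0.08. A high r with this mean thus did not set members apart from other genes. Most like the C1q mean was Pglyrp1, a peptidoglycan recognition protein, at r = 0.73, and further genes near it were Htra1, Pld4, Dad1, Rnf187, Gpd1, Snx3, Rac2 and Txn2.

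To show what lies before the genes that moved together, the RefSeq promoter table (assembly GRCm38.p6, not the build of the counts) was matched by symbol. It held 22 of the 30 genes and no entry for C1qa, Tyrobp, Tmem119, Selplg, Gpr34, Spi1, Csf1r and Cd14. PU.1 binds purine-rich sites around GAGGAA, so 3 motifs were searched on both strands over 250 bases before to 50 after each start: GAGGAA, the longer GAGGAAGT that contains it, and GGAANNGAA, the form PU.1 shares with IRF factors. GAGGAA stood in 15 of 22 genes (68.2%) and in 31.3% of all 27025 genes in the table, GAGGAAGT in 4 (18.2%) and 3.69%, and GGAANNGAA in 2 (9.09%) and 9.42%. A match is a string of letters, not a bound site. The 200 bases before the start are printed for the C1q pair present in the table, for the neighbours P2ry12 and P2ry13, and for Laptm5, which among the other members was most like the homeostatic mean (r = 0.81), with GAGGAA, or TTCCTC where it lies on the other strand, in capitals.
C1qb: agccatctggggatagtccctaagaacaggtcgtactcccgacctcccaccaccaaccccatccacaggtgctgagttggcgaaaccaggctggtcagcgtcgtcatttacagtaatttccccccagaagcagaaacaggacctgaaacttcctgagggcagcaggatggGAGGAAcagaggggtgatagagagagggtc
C1qc: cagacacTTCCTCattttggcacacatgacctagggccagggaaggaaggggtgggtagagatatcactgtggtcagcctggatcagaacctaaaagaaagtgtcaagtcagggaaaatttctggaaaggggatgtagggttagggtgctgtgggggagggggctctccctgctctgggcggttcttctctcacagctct
P2ry12: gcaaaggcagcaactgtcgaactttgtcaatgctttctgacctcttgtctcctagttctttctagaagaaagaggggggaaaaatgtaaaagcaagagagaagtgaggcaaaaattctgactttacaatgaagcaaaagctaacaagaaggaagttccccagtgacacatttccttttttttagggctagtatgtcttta
P2ry13: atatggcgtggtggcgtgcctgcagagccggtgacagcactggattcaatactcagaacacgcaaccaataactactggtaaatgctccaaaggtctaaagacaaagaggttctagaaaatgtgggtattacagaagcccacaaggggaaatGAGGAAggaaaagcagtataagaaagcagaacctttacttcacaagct
Laptm5: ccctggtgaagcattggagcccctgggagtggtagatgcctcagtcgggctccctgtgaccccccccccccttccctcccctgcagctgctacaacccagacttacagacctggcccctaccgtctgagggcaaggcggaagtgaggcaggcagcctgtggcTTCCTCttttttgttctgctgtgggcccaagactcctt
They were read 5' to 3' on the strand of the gene, for C1qb from chr4:136886201-136886400, minus strand, for C1qc from chr4:136892915-136893114, minus strand, for P2ry12 from chr3:59262986-59263185, minus strand, for P2ry13 from chr3:59210883-59211082, minus strand, and for Laptm5 from chr4:130913116-130913315, plus strand. In C1qb the motif began 30 bases before the start, in P2ry13 48 bases before it and in Laptm5, on the other strand, 38 bases before it. In C1qc it lay near the far end, on the other strand, as part of GAGGAAGT, and the P2ry12 stretch held none.

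Other genes of microglial biology were read as lists. Of 25 further identity genes, 20 were positive in male Mn and 22 in female Mn (median 0.11 in each). In male Pb 14 were positive, in male Pb+Mn 22, in female Pb 14 and in female Pb+Mn 16. At an unadjusted p under 0.05 stood 1 in male Mn (4.0%, against 2.25% of all genes) and 2 in female Mn (8.0%, against 2.62%). The count was 1 in male Pb (4.0%, against 12.5%, a share below the background) and 1 in female Pb (4.0%, against 2.18%). It was 0 in male Pb+Mn (against 2.93%) and 0 in female Pb+Mn (against 1.64%). Hpgds, the prostaglandin D synthase of microglia, was at 0.27 ± 0.13 in male Pb (edgeR unadjusted p = 0.042) and 0.39 ± 0.13 in female Pb (unadjusted p = 0.0048, adjusted p = 1.0), and at 0.30 ± 0.13 in female Mn (unadjusted p = 0.03). None of 9 ligands of microglial receptors, among them Cx3cl1 and Il34, was at that p in any comparison with control within a sex. Of all genes, 1.64% to 12.5% were at that p in these comparisons. The ligand Cx3cl1 was at -0.30 ± 0.17 in male Pb (unadjusted p = 0.083) and 0.15 ± 0.17 in female Pb (unadjusted p = 0.38).

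Other genes of the complement cascade were negative in most groups. Of 11 tested, 9 were negative in female Mn, 8 each in female Pb, female Pb+Mn and male Mn, 7 in male Pb+Mn and 5 in male Pb. At an unadjusted p under 0.05 stood 2 of them in female Mn (18.2%, against 2.62% of all genes), 2 in female Pb (against 2.18%) and 1 in male Mn (9.09%, against 2.25%). Serping1, the C1 inhibitor, was at -0.41 ± 0.20 in female Mn (edgeR unadjusted p = 0.044), -0.50 ± 0.20 in female Pb (unadjusted p = 0.014) and -0.42 ± 0.20 in male Mn (unadjusted p = 0.039), and C4b was at -0.49 ± 0.24 in female Mn (unadjusted p = 0.046) and -0.48 ± 0.24 in female Pb (unadjusted p = 0.049); all had an adjusted p of 1.0. In the same comparisons 9, 10 and 10 of 10 meningeal genes were negative in female Mn, female Pb and male Mn, and their part was not tested.

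Genes that rise in disease-associated microglia were read as well, with 19 of 22 tested. In male Pb 15 were positive, with 3 at an unadjusted p under 0.05 (15.8%, against 12.5% of all genes, a share near the background), among them Cd63 at 0.39 ± 0.18 (edgeR unadjusted p = 0.03) and Cd9 at 0.32 ± 0.15 (unadjusted p = 0.039). Of 16 inflammatory genes 7 passed the filter, and in male Pb Casp1 was at 0.87 ± 0.32 (unadjusted p = 0.0084, adjusted p = 0.34) and Il18 at 0.49 ± 0.20 (unadjusted p = 0.019, adjusted p = 0.35). Nlrp3 was at -0.83 ± 0.28 in female Pb+Mn (edgeR unadjusted p = 0.0048, adjusted p = 1.0). It was the 1 inflammatory gene at that p there (14.3%, against 1.64% of all genes).

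Between the sexes, with 24 females and 24 males, 17 genes of all kinds passed the adjusted threshold (0.104%) and no microglia gene did. Siglech was 12.2 ± 1.96 CPM in females and 13.4 ± 2.08 CPM in males, at -0.13 ± 0.06 (edgeR unadjusted p = 0.043, adjusted p = 0.67). Ltc4s was 2.4 ± 1.22 CPM in females and 3.28 ± 2.3 CPM in males, at -0.46 ± 0.23 (unadjusted p = 0.047, adjusted p = 0.67). These were the 2 members at an unadjusted p under 0.05 (6.67%, against 7.45% of all genes), a share near the background. Leaving out single libraries gave between 0 and 6, with 6 without female control 1. Over all genes, such fits had 917 to 3074 at that p. The sex-by-Pb+Mn term had 0 of 30 at that p (0.789% of all genes) and a median of -0.03, which was 0.08, with 0 at that p, without female control 1. It had Fcer1g, the shared gamma chain of Fc receptors, at -0.35 ± 0.25 (edgeR unadjusted p = 0.16) and Spi1 at -0.33 ± 0.23 (unadjusted p = 0.16).

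Some members share their place with another gene. P2ry12 and P2ry13 lie within Med12l on the opposite strand (median 31.9 CPM), Gpr34 within Cask (59.9 CPM), and Csf1r meets Hmgxb3 (42.3 CPM); long annotated transcripts of Cx3cr1 overlap Wdr48, Gorasp1 and Csrnp1 among others. The library kit keeps strand, but how strand was treated in counting is not given, so reads of such partners may not be told apart in these genes' counts.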

How the data were processed

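Whole-number gene counts were used as deposited: per the labels' protocols and the submitters' processing notes, the authors made them from stranded poly(A) libraries with Trim Galore 0.6.9, STAR 2.7.10b and featureCounts 2.0.6 on GRCm39; strand and multi-mapping settings are not given in the sources used here. Gene IDs were matched to symbols (51884 of 57126 IDs, 99.52% of counts). Counts from 6.27 to 27.6 M per library limit precision most for genes near 1 CPM.

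The 30 genes and all lists were chosen with earlier results of these data known. All 48 libraries entered 1 edgeR 4.0.16 fit (R 4.3.3; TMM, filterByExpr, quasi-likelihood test, two-sided, Benjamini-Hochberg over 16360 genes, threshold 0.05), tested on simulated data. CPM use TMM; log2 CPM a prior count of 2. Relations used 100000 permutations (scipy 1.17.1). Alternatives were RLE scaling, no filter, limma voom 3.58.1, DESeq2 1.42.0, a replicate block, the length slope as covariate, only the groups compared, leaving out each animal and, chosen after seeing the data, leaving out male Pb 6 and female Pb 2. All 30 genes are named; single fold changes are given for the 3 (within-sex exposure comparisons) or 2 members of smallest p, and others where stated. One gene among those most like the member means is not reported here.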

Additional observations from a re-analysis of the deposited data

Results flagged for a closer look

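Within each group of 6 animals, the highest or lowest value of a gene was listed where its gap to the nearest animal took a larger share of the group's range than Dixon's 95% limit for 6 values. This held for 32 of 240 combinations of gene and group (13.3%), where chance gives about 1 in 20, and values of 1 library are not independent. Female control 1 stood above its group in Tmem119 (61.1 CPM, nearest 40.3), C1qa (131 CPM, nearest 74.7), C1qb (70.6 CPM, nearest 39.5), C1qc (69.9 CPM, nearest 40.4), Tyrobp (27.1 CPM, nearest 15.5), Fcer1g (11 CPM, nearest 7.37), Csf1r (172 CPM, nearest 126), Olfml3 (32.5 CPM, nearest 18.5), Selplg (64.0 CPM, nearest 45.8), Laptm5 (76.2 CPM, nearest 48.9), Spi1 (8.5 CPM, nearest 5.34). This library was the highest female control for 27 of 30 genes, with a total of 11.47 M counts and a length slope of -0.212.

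Female Mn 5 stood above its group in P2ry12 (55.0 CPM, nearest 45.3). Male Pb 5 stood above its group in Tmem119 (54.5 CPM, nearest 37.5), Cx3cr1 (85.3 CPM, nearest 65.3). Male Mn 1 stood above its group in Tmem119 (60.3 CPM, nearest 34.5), Selplg (56.5 CPM, nearest 40.9), Laptm5 (66.0 CPM, nearest 49.0). Female Mn 1 stood above its group in Tmem119 (62.9 CPM, nearest 41.7). Male control 5 stood below its group in Siglech (9.64 CPM, nearest 12). Female Pb+Mn 6 stood above its group in C1qb (50.9 CPM, nearest 38.3), C1qc (51 CPM, nearest 37.7), Fcrls (39.5 CPM, nearest 27.6). Male control 1 stood above its group in Trem2 (16.2 CPM, nearest 10.8). Male Pb 6 stood above its group in Tyrobp (42.6 CPM, nearest 22.3), Aif1 (17.7 CPM, nearest 9.03). Male Pb 6 stood below its group in Sall1 (17.6 CPM, nearest 27.3). Female Pb 2 stood above its group in Fcgr3 (23.1 CPM, nearest 12.8). Male control 6 stood below its group in Cd14 (1.32 CPM, nearest 2.8), P2ry13 (9.08 CPM, nearest 12.5). Male Mn 5 stood above its group in Cd53 (10.6 CPM, nearest 8.67). Female Pb+Mn 1 stood above its group in Ltc4s (6.75 CPM, nearest 3.1). Female Pb+Mn 4 stood above its group in Sall1 (33.1 CPM, nearest 28.7).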

How the results depend on the processing

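Of the named fold changes none changed sign. The median over the 30 genes, near 0 in these cases, took both signs when 1 animal was left out in 7 of 17 comparisons, most widely in sex by Mn (-0.06 to 0.15), female Pb+Mn (-0.04 to 0.11), female Pb (-0.01 to 0.14) and sex by Pb+Mn (-0.07 to 0.08). Counts of genes past the adjusted threshold that differed from 0 were, for male Pb+Mn against male Pb, 326 with DESeq2 and 0 to 1545 when 1 animal was left out (1479 without male Pb 2, 1545 without male Pb 5); for Pb averaged over sexes, 33 with DESeq2 and 0 to 1 (1 without female control 1 or female Pb 3); for Pb+Mn averaged over sexes, 1 with DESeq2 and 0 to 1 (without male Pb+Mn 4); for Mn averaged over sexes, 1 in a fit of only the groups compared; and for male Pb against male control, 0 to 1 (without male Pb 2). In every other exposure comparison edgeR, DESeq2 and limma voom called 0 genes. The relation of Cd14 with C1qa was r = 0.33, near the 0.34 with all libraries, but with an adjusted p of 0.074, without the 2 libraries farthest in Cd14. The causes were not tested. Of 988 recomputed fold changes of named members 984 kept direction and side of the threshold, and 4, of Gpr34 and Cd53, came past it; Fcgr3, not among these, also did without male Pb 2 or male Pb 5.

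Same-numbered animals correlated above 0.1 in 18 of 72 pairs (-0.34 to 0.35). Animals of different numbers were not compared in this way, so these values cannot tell whether the numbers pair animals. With the replicate block every exposure comparison still had 0 genes past the threshold, and Pb averaged over sexes kept 1 member, Aif1, at an unadjusted p under 0.05. For the comparison of the sexes no block could be fitted, since numbers lie within a sex. With 6 animals a group and counts as low as 4 (Ltc4s) and 8 (Cd14) in a library, small differences were not detectable at this depth.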
